A study of Drosophila melanogaster with 2 samples.

Results

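The nuclear genes of the mitochondrial respiratory chain and ATP synthase were followed through the chromatin regions recovered with GFP-tagged espinas (esn) from whole Drosophila melanogaster at the white prepupa stage. Members are protein-coding genes whose Ensembl symbol begins with ND-, Sdh, UQCR, COX or ATPsyn. Membership rests on the symbol alone, and it gave 88 of the 13945 protein-coding genes on the chromosome arms, with 40 in complex I, 8 in complex II, 9 in complex III, 16 in complex IV and 15 in complex V. Subunits with other names, such as blw and levy, fall outside the symbols and are given further on as a separate list.

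The flies came from a transgenic line that stably expresses esn with GFP at its C-terminus, and both sexes were pooled. Chromatin was sheared by sonication and precipitated with an antibody against GFP, and the DNA was sequenced (ChIP-seq). The series has 1 group of 2 biological replicates. Neither untagged flies nor the control libraries were analysed here, so binding by espinas and enrichment that does not depend on it cannot be told apart, and in whole animals the tissue behind a region is unknown. The labels give no driver or level of the fusion protein.

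Complexes I to IV pass electrons from NADH and succinate through ubiquinone and cytochrome c to oxygen, and complexes I, III and IV pump protons across the inner mitochondrial membrane. Complex V, the ATP synthase, uses the returning protons to make ATP. Most subunits are encoded in the nucleus and have to be made in amounts that fit one another and the few subunits encoded in mitochondrial DNA. In Drosophila many of the nuclear genes have a second copy, usually given the same symbol with a final L, and such copies are known to be transcribed mainly in the testis. Espinas carries LIM domains, as does its relative Prickle, which acts in the polarity of epithelial cells.

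Of the 88 members, 37 had a promoter summit, or 42.0% with a Wilson 95% interval of 32.3 to 52.5%. A promoter summit here means that the peak position the authors gave for a region of the IDR list (regions kept for reproducibility between the replicates) was within 500 bases of a protein-coding transcript start. Among all protein-coding genes the share was 35.4% (4936 of 13945), inside the interval of the members. ATP synthase genes had the largest share with 9 of 15, and complex III the smallest with 2 of 9. The gene copies with a final L had almost none, with 1 of 24, whereas 36 of the other 64 members had one. ND-MNLL, whose symbol also ends in L, was not taken as a copy and is counted among the 64 throughout. These intervals cover counting error over genes only, and the number of reads behind a region is unknown.

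Sequences at 5 member summits that held one of the searched motifs are shown first, to give examples of the matches found there, as 121 bases centred on the summit, read from the dm6 genome on the strand of the gene. The windows hold 0 to 7 bases of annotated protein-coding exon. Not shown are the windows of ND-30, ND-B17 and ND-23, which hold TATAAA and have a stronger summit than ND-B14.5A. Windows with a match and 48 to 121 exon bases are also not shown. They hold TATAAA in ND-42, ND-B22 and COX5A, TATCGATA in UQCR-14 and GGTCACAC in UQCR-C2. Capitals mark a match. In ND-ASHI they mark TATAAA, the word searched for the TATA box, just upstream of a summit that is itself 233 bases upstream of the start. In ND-SGDH they mark TATAAA on both strands, overlapping TTATATAA. In ND-MNLL they mark TTACATAA. In ND-B14.5A and SdhC they mark TATCGATA, the DNA replication-related element (DRE) to which Dref binds.
ND-ASHI, chrX:6679291-6679411: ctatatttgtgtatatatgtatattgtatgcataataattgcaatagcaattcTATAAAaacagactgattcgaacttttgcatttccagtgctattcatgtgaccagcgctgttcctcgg
ND-SGDH, chr3L:12138581-12138701: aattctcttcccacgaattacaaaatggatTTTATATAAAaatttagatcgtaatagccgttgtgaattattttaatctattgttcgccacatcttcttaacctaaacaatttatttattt
ND-MNLL, chrX:7893832-7893952: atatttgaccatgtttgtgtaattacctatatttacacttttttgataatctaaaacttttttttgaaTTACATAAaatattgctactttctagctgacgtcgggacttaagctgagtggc
ND-B14.5A, chrX:2172412-2172532: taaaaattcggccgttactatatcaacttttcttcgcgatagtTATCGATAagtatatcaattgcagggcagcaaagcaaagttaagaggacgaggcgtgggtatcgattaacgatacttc
SdhC, chr3R:11210133-11210253: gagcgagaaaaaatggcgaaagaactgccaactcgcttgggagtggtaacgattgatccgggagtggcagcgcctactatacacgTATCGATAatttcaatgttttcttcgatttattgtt

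A palindromic element described at the nuclear respiratory genes of Drosophila lay near many members. Its core was searched as TTACATAA, TTATGTAA, TTACGTAA and TTATATAA, on both strands, where the first pair are the same word read on opposite strands. The sites below were taken from the 19 that lie 200 to 249 bases downstream of the gene start, the stretch with the most matches, to show members of every complex, with ND-75, UQCR-C1, COX7A, ATPsynG and ATPsyndelta as members without a promoter summit. Each line gives 28 bases on the strand of the gene with the core in capitals. SdhD, ATPsynCF6, ATPsynB, COX7B, ND-51, UQCR-C1, ATPsyndelta and ATPsynG have it in an intron, and ND-MNLL, UQCR-14, COX7A and ND-75 in an exon. These 12 lie between 207 and 245 bases downstream by that choice, and other sites, also of some of the same genes, lie elsewhere within 500 bases of the start.
ND-51, chr2L:6062500-6062527: tgccatcaaaTTATGTAAtttttgcgca
ND-MNLL, chrX:7893574-7893601: ctcgtttttaTTACGTAAtgcggcaaaa
ND-75, chrX:8251432-8251459: accaaaacacTTATGTAAtttttattgg
SdhD, chr3R:23760379-23760406: acagctttcaTTATATAAccaaaccgtt
UQCR-14, chrX:16286520-16286547: aatattatgaTTACGTAAatatgtaatg
UQCR-C1, chr3R:14890463-14890490: aggatttaaaTTACGTAAttgtaaatga
COX7B, chr3L:17425684-17425711: accttaaaaaTTACATAAtgtggataag
COX7A, chr3R:8340810-8340837: ctacatccaaTTACGTAAgttccctgga
ATPsynCF6, chr3R:23355842-23355869: aacaattgtaTTACATAAcctttttaag
ATPsynB, chr3L:9730219-9730246: acatcgtggtTTATGTAAtcaccaccca
ATPsynG, chr2L:10976168-10976195: aatcgcaaaaTTATGTAAtgatcacttt
ATPsyndelta, chrX:10213187-10213214: acctacaaagTTACATAAtttggttatt

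Complex I, the entry point for electrons from NADH, held the strongest member summits, and 17 of its 40 members had one (42.5%, interval 28.5 to 57.8%). Values are the authors' signal. Its scale is unstated and not the same in each list, so ranks are used between the replicate lists, where rank 1 is the strongest region. ND-ASHI, an accessory subunit of the membrane arm, had a signal of 1948 in the IDR list, with 1295 and rank 283 in replicate 1 and 650 and rank 406 in replicate 2. Its summit lay 233 bases upstream of the ND-ASHI start, and also 289 bases from the start of Fum1, the fumarase of the tricarboxylic acid cycle. It is the member that stood highest in both replicates, and a weaker summit of 270 lay exactly on another ND-ASHI transcript start.

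ND-MWFE, a small membrane-arm subunit, followed with a signal of 1183, and had 862 and rank 683 in replicate 1 and 309 and rank 1639 in replicate 2. ND-42, an accessory subunit, had 919, with 585 and rank 1353 in replicate 1 and 343 and rank 1380 in replicate 2. For both genes the summit lay nearer to another gene than to the member, 25 bases from TppII and 13 bases from Cchl. A second ND-42 summit, 16 bases downstream of its own start, had a signal of 368. ND-SGDH, another membrane-arm subunit, had 797, and its replicate ranks were 1318 and 2853.

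The core subunits of complex I carry the electrons from NADH to ubiquinone. Of the 7 encoded in the nucleus, 5 had a promoter summit (71.4%, interval 35.9 to 91.8%). Of the 27 accessory members without a final L, 12 had one (44.4%, interval 27.6 to 62.7%), and these intervals overlap. The difference depended on the list. In the pooled list the counts were 6 of 7 and 23 of 27. Among the strongest regions of replicate 1, as many as in the IDR list, they were 3 of 7 and 13 of 27. In replicate 2 they were 4 of 7 and 12 of 27. ND-24, which holds an iron-sulphur cluster next to the entry site, had a signal of 785 in the IDR list (ranks 1664 and 2045 in replicates 1 and 2). ND-51, which binds NADH and flavin, had 540 (ranks 2701 and 3788). ND-30 had 314 (ranks 6613 and 4910).

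The other core subunits had weaker summits or none in the IDR list, whose weakest region had a signal of 164. ND-23, which carries iron-sulphur clusters, had 225, at rank 11778 in replicate 1 and rank 5200 in replicate 2. ND-20, which holds the last cluster before ubiquinone, had 167, at ranks 10923 and 15890, and was the only one of the 37 members outside the strongest 10918 regions of both replicates. ND-49, part of the ubiquinone site, had no IDR summit but one in the pooled list, with a signal of 119, and in both replicate lists, at ranks 12103 and 23366. ND-75, which carries several iron-sulphur clusters, had none there, and its single summit was in replicate 1, at rank 28901.

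The remaining complex I members with a summit were ND-MNLL, ND-B22, ND-B17, ND-13B, ND-B17.2, ND-B14.5A, ND-B15 and ND-B18, with signals between 191 for ND-B18 and 388 for ND-MNLL. Of the members without one, ND-13A, ND-15, ND-18, ND-39, ND-49, ND-ACP, ND-B12, ND-B14.5B, ND-B14.7, ND-B16.6, ND-B8 and ND-PDSW were in the pooled list, from 63.7 for ND-B16.6 to 159 for ND-B8. ND-B14 was in both replicate lists and ND-75 in that of replicate 1, and neither was in the pooled list. ND-19, ND-AGGG and ND-MLRQ, along with all 6 copies ending in L, L1 or L2, had no summit in any list. ND-18 was the one member without an IDR summit that stood among the strongest 10918 regions of both replicates, at ranks 10625 and 10320.

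Complex II oxidises succinate and is also an enzyme of the tricarboxylic acid cycle. SdhC, one of its membrane anchors, had the strongest summit at 477, with 307 and rank 3459 in replicate 1 and 170 and rank 3757 in replicate 2. It lay 344 bases upstream of the SdhC start and 54 bases from the start of Tctp. SdhD, the other anchor, had 264 at 12 bases downstream of its start (ranks 8189 and 6129). Sdhaf3, an assembly factor that the symbol brings in, had 263 at 58 bases upstream (ranks 7193 and 7713). Neither catalytic subunit had a promoter summit among the IDR regions. SdhA, the flavoprotein, was in the pooled list at 54.1 and at rank 16622 in replicate 1 alone, and SdhB, the iron-sulphur protein, was at rank 19987 in replicate 1 alone. SdhAL, SdhBL and SdhCL had no summit in any list.

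Complex III takes electrons from ubiquinol to cytochrome c, and 2 of its 9 members had a summit (22.2%, interval 6.32 to 54.7%). UQCR-14, a small subunit, had 304, with 199 and rank 5711 in replicate 1 and 102 and rank 6985 in replicate 2, and UQCR-C2, one of the large core proteins, had 204 (ranks 9194 and 8832). Both summits lay within 50 bases upstream of a start, with no start of another gene close by. For UQCR-C2 this was an internal start, so its summit lay inside the gene. UQCR-C1, the other core protein, had no IDR summit but was in the pooled list, at 76.0, and so were the small subunits UQCR-6.4 at 110 and UQCR-Q at 92.6. All 3 were also in both replicate lists. UQCR-11 and the 3 copies ending in L were in no list.

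Complex IV, cytochrome c oxidase, reduces oxygen, and 6 of its 16 members had a summit (37.5%, interval 18.5 to 61.4%). COX5A had 592, with 406 and rank 2345 in replicate 1 and 186 and rank 3369 in replicate 2. COX7B had 577 (ranks 2731 and 2603) and COX8 459 (ranks 3657 and 3806). These nuclear subunits surround the core that mitochondrial DNA encodes, and each of the 3 summits was shared with another gene's promoter, that of glo, Sec3 or VhaM9.7-b. COX6B had 319, COX7C 290 and COX7AL2 169. COX4, COX5B and COX7A had no IDR summit but were in the pooled list, with 72.6, 132 and 118, and in both replicate lists. COX7AL was in the replicate 1 list alone at rank 29140, and COX4L, COX5BL, COX6AL, COX6AL2, COX6CL and COX7CL were in none.

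Complex V had a promoter summit at 9 of its 15 members (60.0%, interval 35.7 to 80.2%), and at 9 of the 11 without a final L. They covered most parts of the enzyme. In the catalytic head, ATPsynbeta had 330 (ranks 5482 and 5735), and in the central stalk ATPsyngamma had 289. In the peripheral stalk ATPsynCF6 had 344 (ranks 6128 and 4120), ATPsynD 209, ATPsynB 207 and ATPsynO 200. In the membrane ATPsynE had 495, with 328 and rank 3149 in replicate 1 and 187 and rank 3353 in replicate 2, ATPsynF 273 and ATPsynC, the proton-carrying ring, 170.

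ATPsynG and ATPsyndelta, the remaining members of complex V without a final L, had no IDR summit but were in the pooled list, at 75.8 and 45.1, and in both replicate lists or, for ATPsyndelta, in that of replicate 1. ATPsynepsilonL was in the pooled list at 48.1 and in that of replicate 2 alone, and ATPsynCF6L, ATPsynGL and ATPsynbetaL were in no list. The share of complex V was the highest of the 5, but its interval overlaps those of all the others, and no test of the difference was made.

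**Figure D1:**
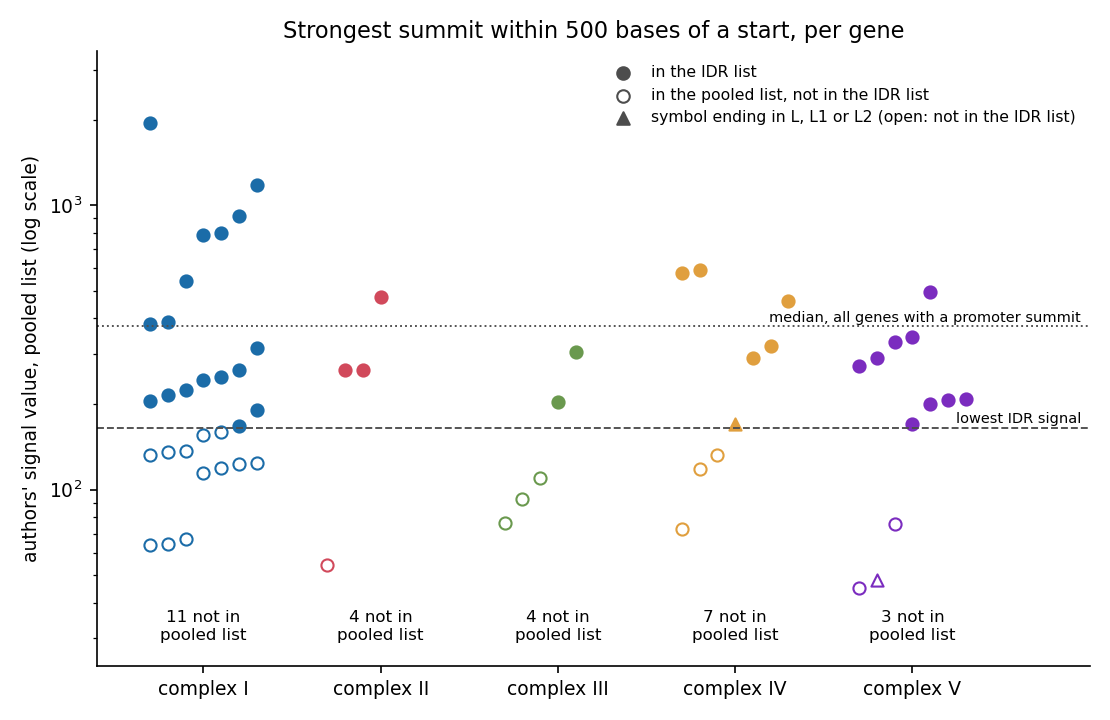
Authors' signal of the strongest summit within 500 bases of a start for each member in the pooled list, by complex, on a log scale. Filled symbols are members in the IDR list, open symbols are in the pooled list but not the IDR list, triangles are symbols ending in L, L1 or L2, and the lines mark the lowest IDR signal (164) and the median of all genes with a promoter summit (375). ND-MNLL is not drawn as a triangle. Complex I spans 167 to 1948 among filled points, and most filled points of complex V lie below the median of all genes.

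The members' summits were weaker than those of genes in general. Their median signal was 290, against 375 for all protein-coding genes with a promoter summit, a ratio of 77.4%. The same ratio was 77.0% in the replicate 1 list and 85.3% in the replicate 2 list. Of the 37, 15 lay above the median of the IDR list of 328 (40.5%), against 57.1% of all genes with a summit. ND-ASHI and ND-MWFE alone were among the strongest 1091 regions of the list, 5.41% of the 37, against 14.0% of all genes with a summit. The count depended on where the list ended. In the pooled list, without the IDR threshold, 59 of the 88 members had a summit (67.0%), against 52.0% of all genes.

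Most of these summits were among the stronger regions of both replicates, which the selection for the IDR list favours. Among the strongest 10918 regions of each replicate, 36 of the 88 members had a promoter summit in replicate 1, where 35.1% of all genes had one. In replicate 2 it was 35 of the 88, where 34.9% of all genes had one. Of the 37 members of the IDR list, 30 were in both, beside 4251 of the 4936 genes with a promoter summit. Of the other members, 4 were in replicate 1 only (ND-B17.2, ND-B18, ATPsynO and ATPsynC), 2 in replicate 2 only (ND-23 and ND-B15) and ND-20 in neither. The rank was better in replicate 1 for 26 members and in replicate 2 for 11, and the median ranks were 6293 and 6101.

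**Figure D2:**
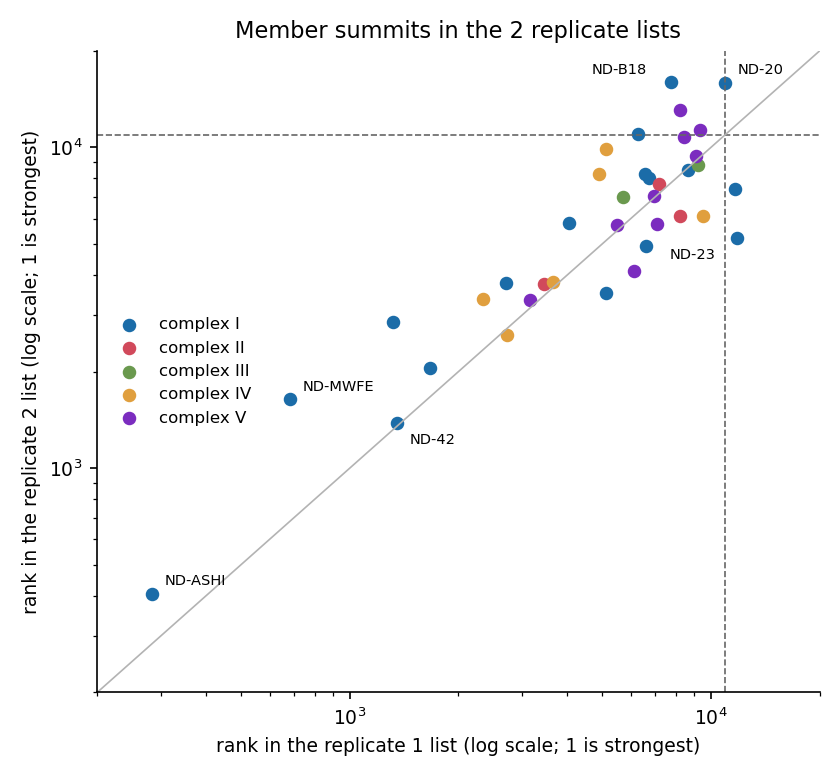
Rank of the strongest promoter summit in the replicate 1 list (x axis) and the replicate 2 list (y axis), both on log scales, for the 37 members, coloured by complex; the solid line marks equal ranks and the dashed lines the 10918th region. ND-ASHI is highest in both lists, and the points scatter most among the weaker regions, where ND-23 and ND-B18 lie far from the line on opposite sides.

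The copies with a final L stood apart from the genes they are named after. Of the 24 members other than ND-MNLL whose symbol ends in L, L1 or L2, 1 had a promoter summit (4.17%, interval 0.739 to 20.2%). Of the other 64 members, ND-MNLL included, 36 had one (56.2%, interval 44.1 to 67.7%). Among all protein-coding genes the share is the 35.4% given above, between the 2 intervals. The copy with a summit was COX7AL2, whose signal of 169 was near the lower end of the list and whose summit lay 334 bases upstream. This division by the final letter was made after the values were seen. ND-MNLL, with a signal of 388, was left out of the copies by hand.

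For 20 of the 24 the symbol without its ending is that of another member, which gives 20 pairs over 18 base genes. In 10 pairs the base gene alone had a summit, as in ND-24 (785) and ND-24L, ND-51 (540) with both ND-51L1 and ND-51L2, SdhC (477) and SdhCL, ATPsynCF6 (344) and ATPsynCF6L, and ATPsynbeta (330) and ATPsynbetaL. In 1 pair, COX7A and COX7AL2, the copy alone had one, in no pair had both, and in 9 neither had. The 4 copies without a base gene among the members are COX6AL, COX6AL2, COX6CL and ATPsynepsilonL. A region's reads can be ambiguous between near-identical copies, and how the authors treated reads that map to several places is not given in the sources used here.

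**Figure D3:**
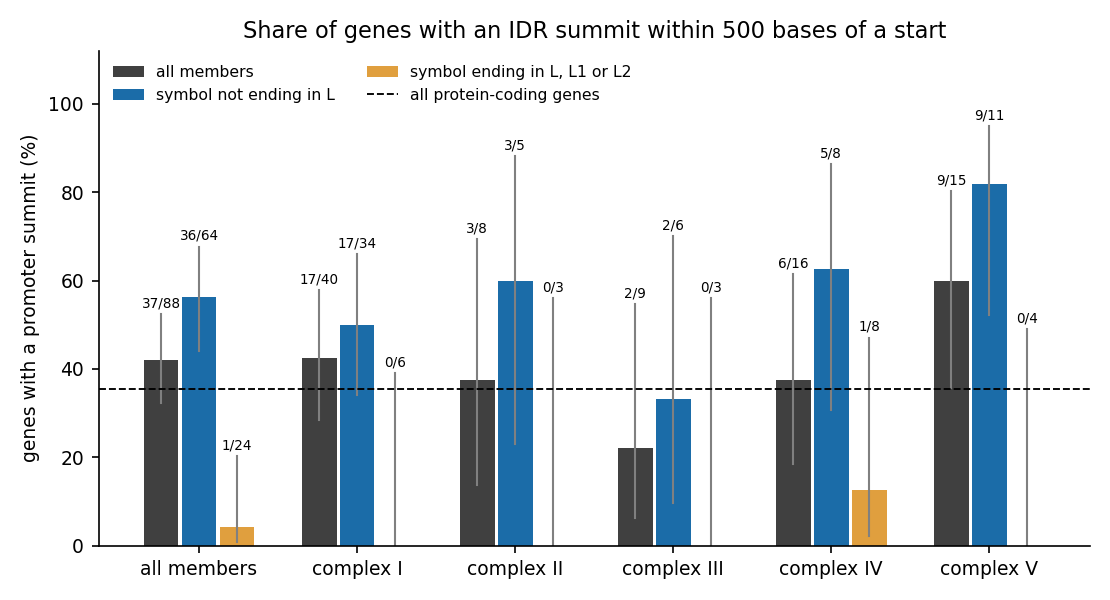
Percent of genes with an IDR promoter summit for all members and for each complex, as bars with Wilson 95% intervals, for all symbols, for symbols without a final L and for symbols ending in L, L1 or L2. ND-MNLL is counted with the symbols without a final L. The dashed line is all protein-coding genes (35.4%); every bar for symbols without a final L lies above it except complex III (2 of 6), and among the complexes, copies ending in L have a bar only in complex IV (1 of 8).

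Many Drosophila genes start close to another gene, so that 1 region can lie at both starts. Where another protein-coding gene started within 500 bases, 24 of 41 members had a summit (58.5%), against 61.1% of all such genes. Where none did, 13 of 47 members had one (27.7%), against 23.9% of all such genes. Within each class the share of the members was near that of all genes. Without the copies ending in L, 24 of 38 members with a close neighbour had a summit (63.2%), and 12 of 26 with none (46.2%, interval 28.8 to 64.5%). Of the 24 copies, 21 had no close neighbour, and 1 of these 21 had a summit.

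The signal followed the same division. The median was 366 for the 24 members with a close neighbour, against 416 for all such genes, and 216 for the 13 members with none, against 334 for all such genes. ND-B22 at 383 was the strongest member with no close neighbour, and every member summit stronger than that one lay within 500 bases of a neighbour's start. Of the 24 shared summits, 14 were nearer to the member, 8 were nearer to the neighbour and 2 were equally far from both. Which of the genes such a region belongs to cannot be told apart from position alone.

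The members' summits lay close to the start and mostly upstream of it. The median distance was 63 bases, against 127 bases for all genes with a promoter summit. Within 100 bases lay 62.2% of the member summits, against 40.9% for all genes, and upstream lay 78.4%, against 82.6%. Positions are relative to the nearest of a gene's starts. In COX5A, ND-B18, ND-B22, UQCR-C2 and ATPsyngamma that start was internal, and the summit upstream of it lay inside the gene. The summits of ND-13B at 9 bases and ATPsynO at 6 bases almost coincided with the start.

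At the limit of 500 bases, the members farthest out with their strongest summit were SdhC at 344 bases upstream, COX7AL2 at 334 bases upstream and ATPsynC at 431 bases downstream, although ATPsynC had a second summit of 170 at 32 bases. Just outside lay ND-ACP at 667 bases, ATPsynG at 673 bases and ND-75 at 781 bases from the nearest IDR summit. For 23 of the 51 members without a promoter summit the nearest one was over 5000 bases away. ND-15, ND-39 and ND-ACP had IDR summits inside the gene but none at a start. The windows of 100 bases to each side of the summit had a G+C content of 36.4 ± 7.22% for members and 36.6 ± 7.78% for all genes with a promoter summit (SD over 37 and 4936 genes).

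**Figure D4:**
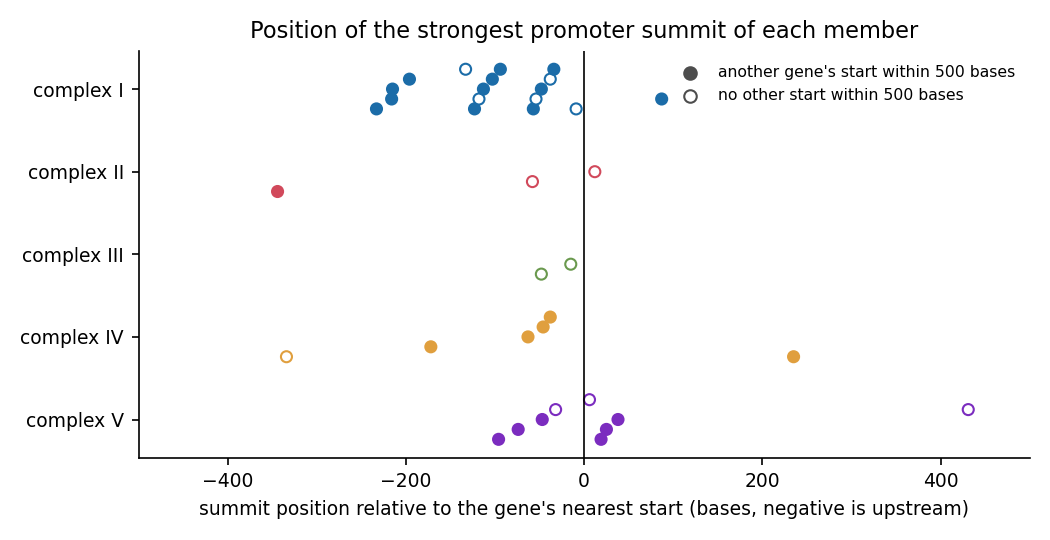
Position of the strongest promoter summit of the 37 members relative to the nearest start of the gene, in bases with upstream negative, by complex; filled points have another protein-coding start within 500 bases and open points have none. Most points lie between the start and 250 bases upstream, and COX7C (235 bases) and ATPsynC (431 bases) are the ones farthest downstream.

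Among promoter motifs, searched on both strands from 250 bases before to 50 after the gene start, Motif 1 (GGTCACAC), a core promoter element of broadly expressed genes, was in 16 of 88 members (18.2%), against 7.70% of all genes. Members with a summit had it in 16.2% and members without one in 19.6%. The DRE (TATCGATA) was in 10.2% of members, against 9.36% of all genes. TATAAA was in 55.7% of members, against 45.8%, the E-box CACGTG in 4.55%, against 4.20%, and GAGAGAG in 1.14%, against 5.87%. Within 100 bases of the summit, the DRE was at 4 of 37 members (10.8%), against 9.72% of all genes with a summit, and Motif 1 at 1 of 37 (2.70%), against 6.16%. A match to these letters is a description of the sequence and not evidence of a bound factor.

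The respiratory gene element stood elsewhere. In the window up to 50 bases after the start it was in 6.82% of members, against 5.18% of all genes. Within 500 bases on either side it was in 47 of 88 members (53.4%, interval 43.1 to 63.5%), against 14.7% of all genes. Downstream of the start 45 members had a match (51.1%), against 5.66% of all genes, and upstream 10.2% had one, against 9.63%. In the 50 bases from 200 to 249 after the start, 19 members had a match, against 0.810% of all genes. Because the element was described at genes of this kind, its presence at the members is not an independent result.

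Of the 58 sites at members, 28 lay in an intron and 21 in an exon of the gene, 3 in an exon of another gene and 6 outside any of these. In complex V it was at 10 of 15 members, in complex I at 24 of 40, in complex II at 4 of 8, in complex IV at 6 of 16 and in complex III at 3 of 9. Of the copies ending in L, L1 or L2, COX6AL2 alone had a match, at position -492, and 46 of the other 64 members had one (71.9%). The word TTACGTAA made up 22.4% of the members' sites, against 8.96% of the sites of all genes.

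**Figure D5:**
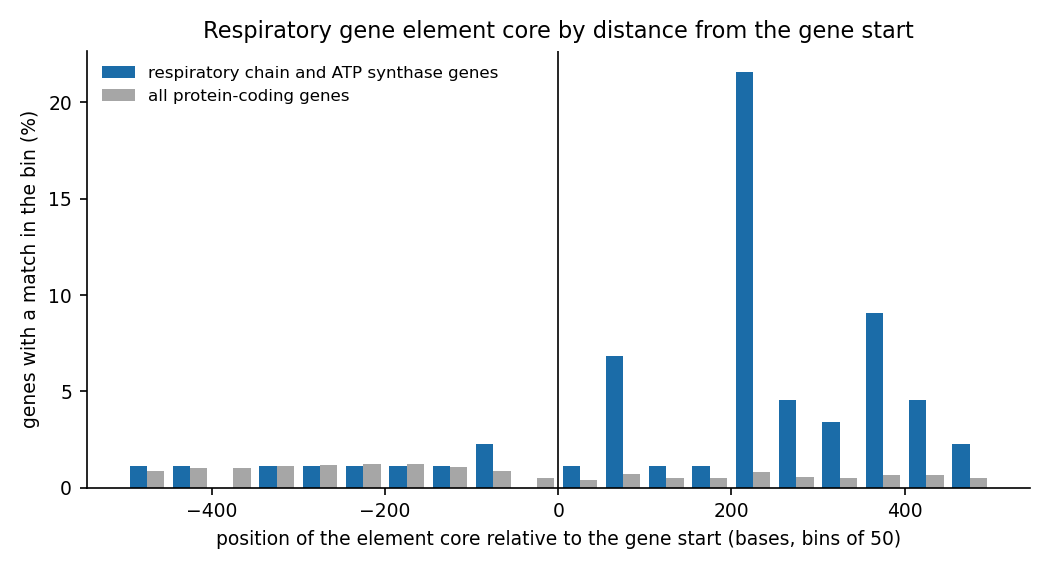
Percent of genes with a match to the respiratory gene element core in each bin of 50 bases, by distance from the gene start with upstream negative, for the 88 members (left bar of each pair) and all 13945 protein-coding genes (right bar). From 200 to 249 bases downstream 21.6% of members have a match, against 0.810% of all genes, and upstream bins are alike in both.

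The element was present more often at members with a summit, but in most of them it lay away from the summit. A match within 500 bases of the start was at 29 of 37 members with a promoter summit (78.4%) and at 18 of 51 without (35.3%), compared with 16.2 and 13.8% among all genes. Without the copies ending in L, the figures were 29 of 36 (80.6%, interval 65.0 to 90.2%) and 17 of 28 (60.7%, interval 42.4 to 76.4%), and these intervals overlap. In the 29 members with both, the site nearest to the strongest summit was downstream of it in 25, with a median of 257 bases. It was within 100 bases of the summit in 5, of which ND-MNLL at 11 bases was the nearest, and beyond 200 bases in 18. Counted over windows of 100 bases to each side of the strongest summit, a whole match was at 4 of 37 members (10.8%), against 4.38% of all genes with a promoter summit. In ND-ASHI, the member with the strongest summit, the site was 663 bases away.

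Other nuclear genes of mitochondrial energy metabolism, listed by function with earlier results known, had a promoter summit in 30 of 49 (61.2%, interval 47.2 to 73.6%), beside the 35.4% of all genes. The share was 61.1% among all genes with a close neighbour and 23.9% among those with none, and the lists were not matched for this. Subunits with other names and cytochrome c had a promoter summit in 6 of 9 (66.7%, interval 35.4 to 87.9%). Cyt-c-d, a cytochrome c, had a signal of 2131, blw, the partner of ATPsynbeta in the catalytic head, 1162, and levy, a complex IV subunit, 427. The Cyt-c-d summit lay 362 bases downstream of a start, and Cyt-c-p, the other cytochrome c gene listed, had a signal of 213. At levy the base gene had a summit while COX6AL and COX6AL2, copies of the same subunit, had none. Neither sun, the epsilon subunit of ATP synthase, nor its copy ATPsynepsilonL had an IDR summit. In the replicate lists sun was at ranks 26465 and 21214, but it was not in the pooled list. ATPsynepsilonL was in the pooled list at 48.1 and in the replicate 2 list alone, at rank 19771. Both subunits that alternate in the catalytic head thus had a summit, ATPsynbeta at 330 and blw at 1162.

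The pyruvate dehydrogenase and tricarboxylic acid cycle genes had the highest count, 11 of 14 (78.6%, interval 52.4 to 92.4%, against 35.4% of all genes). Fum1 had 1948, at the summit it shares with ND-ASHI, Idh3g, a subunit of isocitrate dehydrogenase, 1780, and mAcon1, the aconitase, 999. Assembly factors had one in 4 of 9 (44.4%, interval 18.9 to 73.3%), led by Ttc19 (1045), Cox17 (853), which carries copper to complex IV, and Coa8 (286). Carriers and pore genes had one in 3 of 6, with Ucp4A at 797, porin, the outer membrane channel, at 274 and Mpcp2, a phosphate carrier, at 188.

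Genes for mitochondrial transcription, replication and their nuclear regulators had one in 6 of 11 (54.5%, interval 28 to 78.7%). The share of all genes, 35.4%, lies inside this interval too. Dref, the factor that binds the DRE, had 1135, mtSSB, which coats single-stranded mitochondrial DNA, 902, and PolrMT, the mitochondrial RNA polymerase, 309. The respiratory gene element was within 500 bases of the start of 9 of the 9 other subunits, 6 of 6 carriers and pore genes, 10 of 14 cycle genes and 4 of 9 assembly factors. It was at 3 of the 11 transcription and replication genes. Among all protein-coding genes the share was 14.7%. Because the element was described at nuclear respiratory genes, its presence at such genes in these lists is not an independent result either.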

How the data were processed

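Peak lists from 2 biological replicates of 1 group were used. The authors called peaks for each replicate and for the pooled replicates, with a control, and derived an IDR list, all on dm6, per the deposited file descriptions. For the signal value, which the authors deposited for each region, the scale is not stated, and the caller, its version and the IDR threshold are likewise not given in the sources used here. These values hold no read counts, so depth is unknown. The labels call the replicates biological but do not say how their animals were raised or pooled, so part of their spread may be technical. Lists on dm3 and signal tracks were not used.

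Gene models were those of Ensembl release 115 (BDGP6.54), and bases were read from RefSeq's Release 6 genome, which has dm6 coordinates, given 1-based. Of 10936 IDR regions, 10918 lay on the arms 2L, 2R, 3L, 3R, 4 and X, and 237 repeated the coordinates of an earlier region. Each gene took its strongest summit within 500 bases of a protein-coding start. Members were set beside all protein-coding genes as counts, shares with Wilson 95% intervals and medians, with no test, since there is 1 group. Intervals cover counting error only. The 3 strongest members of each complex, every complex II member, the core of complex I, the members at the distance limit and the 3 strongest of each other list were named with values; other names were added after values were seen. The symbols Ecsit, E2k and Twinkle did not match the annotation. Members and lists were chosen with earlier results of these data known. Calculations used Python 3.11.15, numpy 2.4.6, pandas 2.3.3, statsmodels 0.14.6 and matplotlib 3.10.9, and the matching of summits to starts was tested on simulated data.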

Additional observations from a re-analysis of the deposited data

How the results depend on the processing

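Under the 9 alternatives, promoter summits were at a larger share of members than of all genes in 8, and at a smaller share of the copies ending in L, a division added after the values were seen, in all 9. With the strongest 5459 IDR regions alone the count was 15 (17.0%, against 20.2% of all genes), with 8, 1, 0, 3 and 3 in complexes I to V, and 3 for other subunits, 2 for assembly factors, 1 for carriers, 5 for the cycle and 2 for transcription and replication. With the pooled list it was 59 of 88 (67.0%, against 52.0% of all genes). In that list it was 29 of 40 in complex I, 5 of 9 in complex III (55.6%), 7 of 9 for assembly factors and 10 of 11 for transcription and replication. With genes that had no close neighbour it was 13 of 47 (27.7%, against 23.9% of all such genes). Of these genes it was 5 of 20 in complex I, 1 of 8 in complex IV and 3 of 6 in complex V. In the other lists it was 3 of 6, 2 of 5, 1 of 2, 3 of 5 and 2 of 4, in the same order. At 1000 bases the carriers had 5 of 6, against 39.5% of all genes. With 1 replicate alone the count was 35 to 36 for all members, against 34.9 to 35.1% of all genes. For complex V it was 7 to 9 of 15, where replicate 2 alone gave 46.7%, against 34.9% of all genes. The ratio of medians was 77.0 to 85.3%. Motif shares within 100 bases of the summit were 2.70% for Motif 1 (6.16% of all genes with a summit), 0 for the E-box (2.39%) and GAGAGAG (3.73%) and 37.8% for TATAAA (35.8%). Within 500 bases of the start they were 78.4% for TATAAA (74.5% of all genes) and 53.4% for the respiratory gene element (14.7%). The windows differ in length, and other causes were not tested. In all, 40 values moved and 91 did not. No paired analysis was possible because both replicates belong to 1 group. Without read counts, no limit of detection can be given for members without a summit.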

Other observations

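By chromosome arm, members had a promoter summit in 12 of 20 on 3R, against 37.2% of all genes on that arm, in 8 of 13 on X, against 36.3%, in 7 of 20 on 3L, against 35.0%, in 5 of 16 on 2L, against 33.8%, and in 4 of 17 on 2R, against 34.6%. On chromosome 4, ATPsynbeta had one and ND-49 had none. Of the members, 7 had more than 1 promoter summit, and in ND-ASHI, ATPsynbeta, ATPsyngamma and ATPsynC these lay at different transcript starts of the gene.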
